A study of Homo sapiens with 8 samples.

Results

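NUP98-binding regions in neural progenitor cells (NeuPCs) were taken as all 3205 regions of the list that the authors made from a single ChIP-Seq library of these cells. They were 3205 of the 7104 regions in the lists of the series, beside 2499 regions in human embryonic stem cells (ESCs) and those of IMR90 lung fibroblasts. ChIP-Seq sequences the DNA fragments pulled down with a chromatin protein and reports the places where fragments pile up. The NeuPCs carried no stated genetic change. They were derived in vitro from the ESC line HUES6 through embryoid bodies and neural rosettes and were grown with FGF2 at 20 ng/ml, so they represent 1 line and 1 differentiation protocol. Chromatin was fixed in 1% formaldehyde for 10 min and pulled down with the polyclonal antibody NUP98Ab1 (catalogue number 2292), with normal rabbit IgG (catalogue number 2729) as the control antibody. The list of ESC regions, set beside the NeuPC list below, came from undifferentiated HUES6 cells fixed and pulled down in the same way. Each cell type had 1 library with this antibody in the lists used here, so replicate error is not known, no difference between cell types was tested, and the intervals given are 95% intervals for counting error only. The lists give no read numbers and those of the libraries were not used here, so the depth behind a region is not given. They also hold no expression values, so the identity of the cells was not checked against marker genes.

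NUP98 is a nucleoporin, one of the proteins that build the nuclear pore complex, the channel between nucleus and cytoplasm. It also moves off the pore into the nuclear interior, where it can associate with chromatin, and it is not known to read a DNA sequence by itself. Neural progenitor cells are dividing precursors of neurons and glia, and in culture they form rosettes that resemble the early neural tube.

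The 3205 regions were short, separate and spread over the whole genome. They covered 396458 bp in all. The median region was 121 bp long with quartiles of 110 and 130 bp, and 80% of the regions, 2564 in number, measured between 90 and 133 bp. The extremes were 53 and 2148 bp. Only 6 regions were shorter than 60 bp and 17 were longer than 300 bp. Of all regions, 3176 lay on chromosomes 1 to 22 and X, 11 on Y and 18 on contigs outside these chromosomes. The ESC list also had 11 regions on Y. Neither the sex of the line nor whether the fragments of the Y regions also align elsewhere was checked here. No region lay on the mitochondrial genome. The caller gave each region a score without a stated unit, which ran from 50.01 to 314.4 with a median of 59.38 and quartiles of 56.89 and 64.69.

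All 23 chromosomes from 1 to 22 and X carried regions, and 2 of them, 17 and 19, carried more per megabase than the rest. Together these chromosomes held 1.08 regions per Mb (exact Poisson interval 1.05 to 1.12) over 2929.7 Mb. The length of a chromosome was measured here as the span from the first to the last region of the NeuPC and ESC lists on it. Chromosome 17 was the densest, with 132 regions or 1.63 per Mb (1.36 to 1.93), which was 1.5 times the density of all chromosomes. Chromosome 19 followed with 88 regions or 1.53 per Mb (1.23 to 1.88). Both chromosomes are known to be rich in genes, and their intervals lay above the common density of 1.08. Chromosome 22, another gene-rich chromosome, held 48 regions or 1.38 per Mb, and its interval of 1.02 to 1.83 included the common density. No gene annotation was used, so a relation between region density and gene density was not tested.

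The sparsest chromosomes stood close to the rest. Chromosome 9 held 130 regions or 0.923 per Mb (0.771 to 1.10), chromosome 8 held 135 or 0.929 per Mb (0.779 to 1.10) and chromosome 4 held 182 or 0.953 per Mb (0.820 to 1.10). The intervals of all of them included 1.08, and no chromosome had an interval below it. The span of chromosome 9 includes a stretch of 19.6 Mb in which neither list has a region, and chromosomes 1 and 16 have such stretches of 21.4 and 11.81 Mb. Without these, chosen after seeing the data, chromosome 9 had 1.07 regions per Mb (0.896 to 1.27) against 1.104 for all chromosomes and was no longer among the sparsest. The sparsest were then chromosomes 8, 4 and 5, the last with 0.958 per Mb, and the intervals of 8 and 4 ended just below 1.104. With the whole spans, in 21 of 23 chromosomes the interval included the common density. The range from the densest to the sparsest chromosome was 1.76 times, compared with 2.12 times in the ESC list. Chromosomes differed little in score, with medians from 57.92 on chromosome 21 to 61.14 on chromosome 14.

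**Figure D1:**
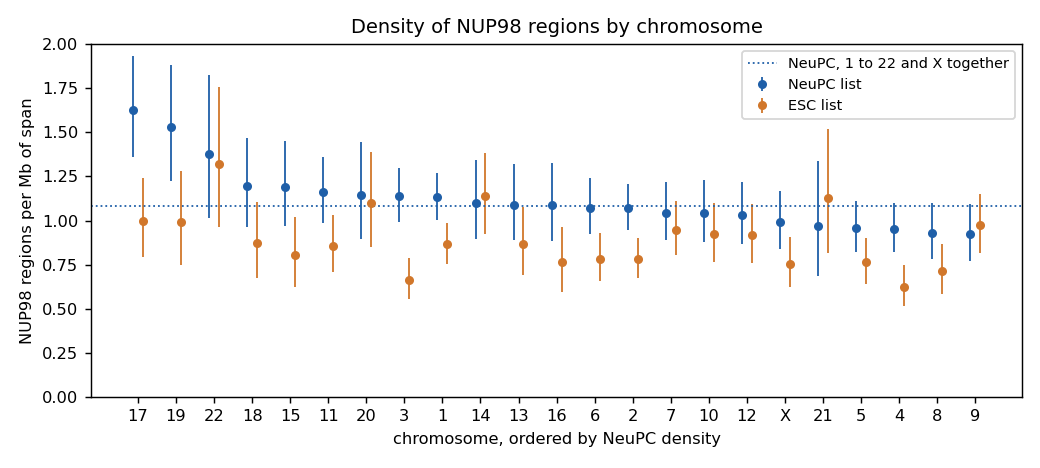
Density of NUP98 regions on each chromosome in regions per Mb of span (y axis), with chromosomes in order of NeuPC density (x axis), as points with exact 95% Poisson intervals that cover counting error only. The NeuPC intervals of chromosomes 17 and 19 lie above the dotted common density of 1.08 per Mb, and those of the other 21 chromosomes cross it.

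The excess over the ESC list was spread over most chromosomes. The NeuPC list held 1.29 times as many regions as the ESC list on chromosomes 1 to 22 and X (1.22 to 1.36), and the NeuPC number was the larger on 20 of 23 chromosomes. Chromosome 3 had the highest ratio, 1.72 (1.38 to 2.15), with 223 regions in NeuPCs against 130 in ESCs. Its interval lay above 1.29. The ratio was below 1 on chromosomes 9 (0.949, interval 0.741 to 1.22), 14 (0.970, 0.725 to 1.30) and 21 (0.861, 0.539 to 1.37), and all of these intervals included 1. The interval of chromosome 9 lay below 1.29, and the intervals of the other 21 chromosomes besides 3 and 9 included it. Across the 23 chromosomes, which share both libraries, the densities of the lists had a Pearson r of 0.402 and a Spearman rho of 0.371, given as a description. The numbers of regions in the lists cannot be told apart from the depths of their libraries.

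NeuPC regions lay far apart from each other. The median distance between the end of a region and the start of the next on its chromosome was 590.4 kb (interval of the median 560.9 to 625.8) over 3163 neighbouring pairs on chromosomes 1 to 22, X and Y, with quartiles of 226.8 and 1262 kb. The mean was 929.3 kb. In the ESC list the median was 734.1 kb. Within single chromosomes the NeuPC median ran from 423.3 kb on chromosome 19 to 803.9 kb on chromosome 8. Distances under 100 kb made up 11.95% of the pairs (378), those under 10 kb 1.58% (50) and those under 1 kb 0.601% (19). At the other end, 134 pairs were 3 Mb or more apart, and 25 were 5 Mb or more apart.

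The longest stretches without a region numbered 3 at 10 Mb or more, against 6 in the ESC list. They ran for 22.19 Mb on chromosome 1 (hg19 chr1:120615740-142809575), for 20.42 Mb on chromosome 9 (chr9:46857906-67277934) and for 12.83 Mb on chromosome 16 (chr16:34189122-47020439). These chromosomes are known for the large blocks of repeat-rich heterochromatin beside their centromeres, where much of the sequence is absent from the assembly.

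**Figure D2:**
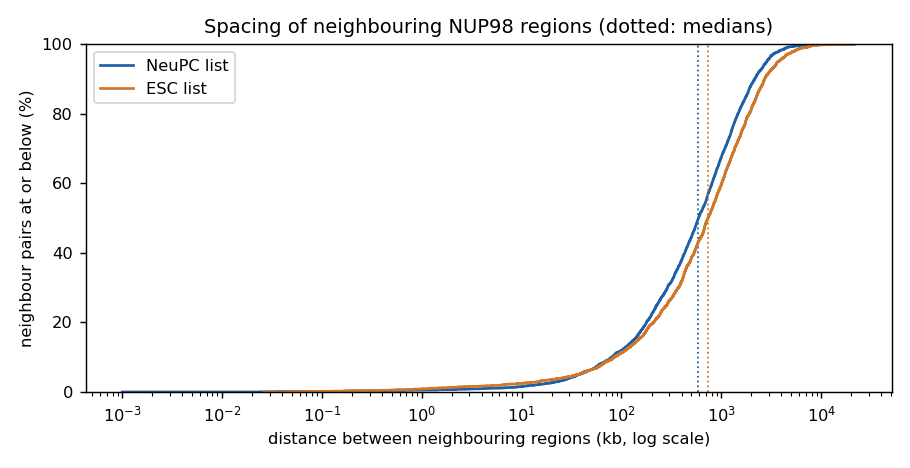
Cumulative share of neighbouring pairs (y axis, %) by the distance between them (x axis, kb, log scale) in the NeuPC and ESC lists. The NeuPC curve lies to the left of the ESC curve over its upper part, with medians (dotted) of 590.4 and 734.1 kb, and under 1 kb both hold few pairs, 19 and 22.

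Close pairs were rare and had no common pattern of score. Of the 19 pairs under 1 kb apart, 6 belonged to a single group on chromosome 1 described below, and the other 13 lay on 12 chromosomes at distances of 1 to 808 bp. The closest pair on chromosome 10 was a near-continuous interval, chr10:3598551-3598668 and chr10:3598670-3598768, split by 1 bp, with scores of 72.34 and 52.97. On chromosome 17 the neighbours chr17:78717817-78717907 and chr17:78717932-78718112 stood 24 bp apart with scores of 65.45 and 83.88. On chromosome 1 the pair chr1:7765060-7765154 and chr1:7765229-7765294 stood 74 bp apart, and both had high scores, 107.06 and 95.08. In contrast, chr14:35015941-35016156 scored 200.23 while its neighbour 263 bp away scored 57.28.

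The scores piled up just below 60. In bins of 1, the fullest ran from 57 to 58 and held 379 regions (11.8% of the list), followed by 302 regions from 59 to 60 and 283 from 58 to 59. The bins on either side were lower, with 175 regions from 56 to 57 and 173 from 60 to 61, and each bin from 50 to 55 held between 99 and 112. The bins from 57 to 60 together held 964 regions (30.1%), and these lay on all 24 chromosomes including Y. Thus the fullest bin did not stand at the lower end of the list, 50.01, but several units above it. In the ESC list the fullest bin ran from 51 to 52 with 355 regions (14.2%), next to its lower end, and 327 regions (13.1%) scored from 57 to 60.

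**Figure D3:**
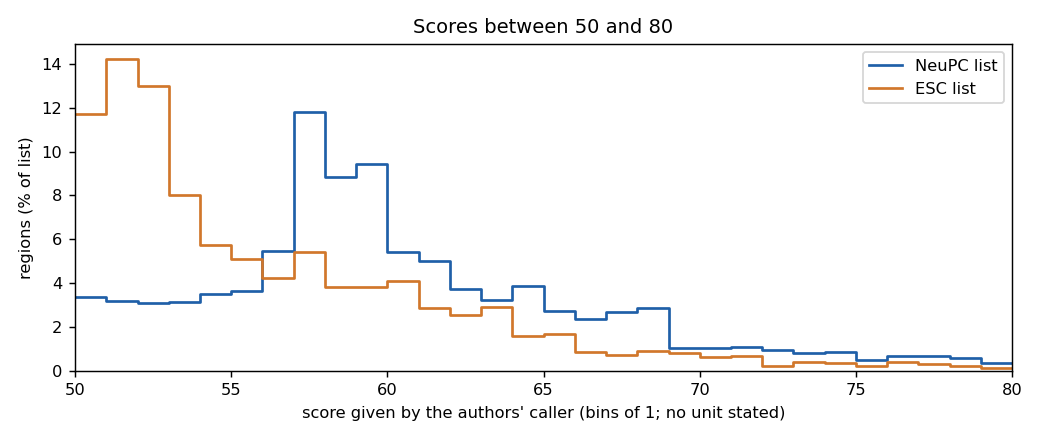
Share of each list (y axis, %) in score bins of 1 between 50 and 80 (x axis, no unit stated). The NeuPC list has its peak from 57 to 60, with 11.8% in the fullest bin, whereas the ESC list has its peak from 51 to 52, with 14.2%.

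Length and score gave no simple relation over the whole list. Across the 3205 regions, which share 1 library and are not independent, Pearson's r was 0.323 and Spearman's rho was -0.158 (ESC 0.278 and -0.0747). The signs differed between the measures. The median length went from 122 bp in regions scoring 50 to 55 to 126 bp at 55 to 60, fell to 112 bp at 60 to 65, was 112.5 bp at 65 to 70, and reached 210 bp in the regions scoring 100 or more.

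Behind this weak relation most scores followed a family of smooth curves. The 3205 regions had only 814 distinct scores, and 2799 regions shared theirs with another region. Of these, 2546 shared it with a region of the same length. Some scores recurred at different lengths, such as 55.97, found mostly in regions that could not be placed on the curves described below. The most common score, 57.48, was found in 61 regions, all of 130 bp. The next, 58.14, was found in 52 regions, all of 127 bp, and 57.70 in 47 regions, all of 129 bp. A score of 56.83 was given to 44 regions of 133 bp. The exception among the most common scores was 68.02, which 43 regions of 12 different lengths between 79 and 90 bp shared. So on the most populated curve the score fell as the length rose, and it was flat at and below 90 bp.

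This curve had the shape of a Poisson tail. The value of -10 log10 of the probability that a Poisson count exceeds 6, with a rate of 4.202 per kb multiplied by the length of the region or by 90 bp if the region was shorter, matched the scores of 1065 regions (33.2%) within 0.01. The rate and the 90 bp floor were adjusted, and the count of 6 was chosen from 3 to 12 as the one that matched the most regions. When the count was set to 7 and the rate and floor were adjusted anew, 220 regions matched, at the same rate and floor. Other counts from 3 to 12 matched at most 117 regions. The curve gave 68.02 at 90 bp, 64.98 at 100 bp, 59.75 at 120 bp and 56.83 at 133 bp. Its regions measured 79 to 166 bp and lay on all 24 chromosomes. Along it the rank correlation of length and score was -1, which follows from choosing regions by their match to a falling curve. The list does not state the formula behind the score, and whether the count in the tail is the number of fragments in a region is not known. The event numbers below name curves and are not measured read numbers.

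Most of the other regions lay on parallel curves of the same kind with a higher rate. The 6-event curves at 1.013 times the base rate held 430 regions, at 1.351 times 243, at 1.081 times 110, at 1.148 times 97 and at 1.216 times 80. Of the 1313 regions whose score, taken at 6 events, called for a rate above the base rate and below 1.8 times it, 1195 (91%) could be given a whole multiple of 0.0338 of the base rate within 0.01 in the score. This step was chosen to match the most regions, and the tolerance covered on average 2.47% of a step. With rates up to 2 times the base rate and the smallest event number that matched, 3046 regions (95%) could be placed on a curve and 159 could not. By the count exceeded, 2260 regions (70.5%) were placed on curves of 6 events, 562 (17.5%) on 7, 131 (4.09%) on 8 and 44 (1.37%) on 9. By chromosome, the share of regions on 6-event curves ran from 60.7% (52.4 to 68.4) on chromosome 10 to 78.8% on chromosomes 11 (71.8 to 84.5) and 7 (71.9 to 84.3). Of the 964 regions scoring 57 to 60, 888 (92.1%) lay on 6-event curves, and 553 of them on the most populated curve alone. Thus the peak of scores below 60 was made up mainly of regions on 6-event curves, and the 964 regions had a median length of 125 bp.

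The number of regions per length dropped abruptly past 133 bp, near the most crowded part of the most populated curve. There were 94 regions of 133 bp but 21 of 134 bp, and the 1065 regions of the curve included 13 longer than 133 bp. At that length the curve stood at 56.83, above the lowest score of the list. The reason for the step was not tested.

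**Figure D4:**
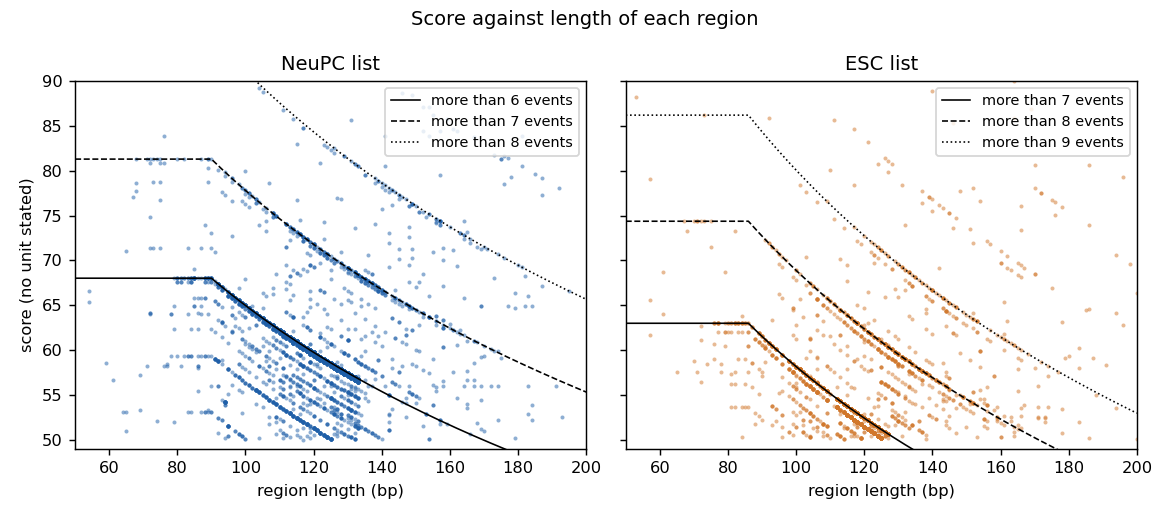
Score (y axis, no unit stated) against length in bp (x axis) for each region of the NeuPC list (left) and the ESC list (right), up to 200 bp and a score of 90, with lines for the Poisson tails beyond the stated numbers of events at the base rate of each list. NeuPC regions gather along the 6-event line, densest between 57 and 60, and fall off past 133 bp before the line reaches 50.

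The ESC list followed curves of the same form with other constants. Its most populated curve exceeded 7 events at 7.683 per kb with a floor of 86 bp, held 903 regions (36.1%), and spanned scores from 50.66 to 63.00. The ESC lengths also had a step, from 82 regions of 127 bp to 27 of 128 bp. At 121 bp, the median length in both lists, the most populated curve gave 59.51 in the NeuPC list and 52.16 in the ESC list, beside list medians of 59.38 and 54.48. Equal scores and lengths in the lists therefore belong to different curves.

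High scores were few, and the highest regions differed in length. A score of 100 or more was given to 35 regions (1.09%), 34 on 17 chromosomes including Y and 1 on another contig, and 6 of them reached 200. The lowest of them had 100.44 and the highest region outside had 99.97. The highest score, 314.4, belonged to chr9:100174109-100174291, a region of 183 bp that stood on a base-rate curve of 26 events. Its nearest neighbour in the list was 403.2 kb away and the nearest ESC region 210.2 kb. The region chr13:114145108-114145291 (184 bp) scored 223.76 and stood at 20 events, and chr7:157991393-157991683 (291 bp) scored 222.06 and stood at 23 events. These regions stood alone, with no other region within 100 kb.

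Some high scores came from very short regions. Of the 35 regions, 9 were under 100 bp and 20 were over 200 bp. The region chr16:25771421-25771480 of 60 bp scored 158.51, and chr17:76902877-76902950 of 74 bp scored 153.65. On chromosome 19, chr19:21890044-21890180 of 137 bp scored 211.47 and could not be placed on a curve. Chromosome 1 had the most regions of 100 or more, 6, of which 4 were in the group described below, and chromosomes 10 and 17 had 4 each. There were none on 7 chromosomes, namely 2, 5, 12, 18, 20, 22 and X.

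Long regions had both high and low scores. The longest, chr21:9825437-9827584 with 2148 bp, scored 191.61. It lies on the short arm of chromosome 21, one of the acrocentric chromosomes whose short arms carry ribosomal RNA gene arrays. The next longest, chr17:966570-967473 with 904 bp, scored 52.26, close to the lowest score of the list. The others among the 5 longest, with 771, 769 and 669 bp, belonged to the group on chromosome 1.

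This group was the tightest in the list. Within 5284 bp at the start of chromosome 1 (chr1:565018-570301) lay 7 regions that covered 3782 bp, 0.954% of the covered length of the list. In order along the chromosome their scores were 153.41, 85.11, 294.95, 116.51, 55.25, 65.85 and 136.16, and their lengths 408, 273, 769, 771, 551, 341 and 669 bp. All were longer than 250 bp, a length that 29 regions of the list exceeded, and 6 of the 7 could not be placed on a curve. This part of hg19 is known to hold a nuclear copy of mitochondrial DNA, to which fragments of the mitochondrial genome can align. The next region on the chromosome was 877.2 kb away, and the nearest ESC region to chr1:566031-566799 was 751.2 kb away.

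Most of the genome held 0, 1 or 2 regions per megabase. On a fixed grid of 2979 windows of 1 Mb, 1098 (36.9%) had no region, 1028 had 1, 536 had 2, 221 had 3 and 65 had 4. A further 24 windows, on 14 chromosomes, had 5. The variance of the number per window was 1.15 times its mean of 1.07, compared with 1.29 times a mean of 0.832 in the ESC list. Windows with 6 or more regions numbered 7 and held 44 regions, 1.37% of the list.

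**Figure D5:**
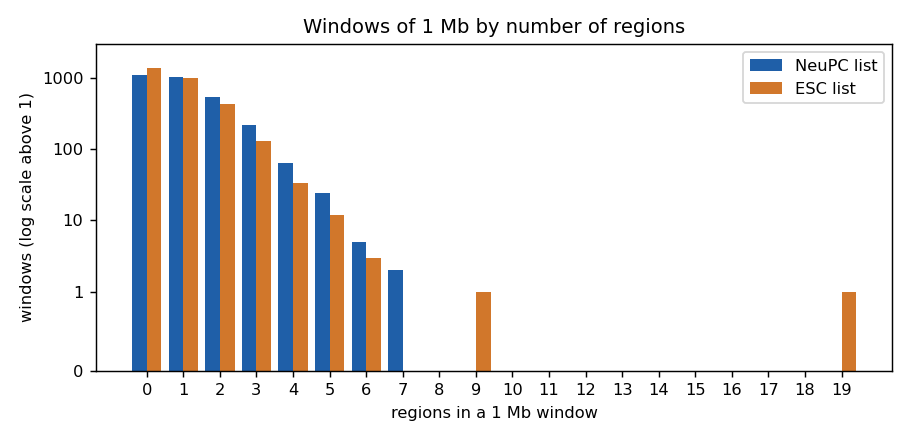
Number of 1 Mb windows (y axis, linear from 0 to 1 and log scale above) by the regions they hold (x axis) in the NeuPC and ESC lists. The NeuPC list stops at 7 regions per window, reached by 2 windows, whereas 1 ESC window holds 9 and 1 holds 19.

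The 7 windows fell into different kinds. The window from 0 to 1 Mb on chromosome 1 held only the group of 7 described above. The window from 66 to 67 Mb on chromosome 11 also held 7 regions, but these were spread over 724.9 kb at distances of 63.0 to 162.8 kb, with lengths of 108 to 132 bp and scores of 53.15 to 62.76. None of its regions was long or high in score. The same held for the 6 regions at 54 to 55 Mb on chromosome 2, with scores of 52.85 to 66.56, and for the 6 at 139 to 140 Mb on chromosome 9, with scores of 52.46 to 64.98. At 155 to 156 Mb on chromosome 6, 6 regions lay within 450.3 kb, with scores of 53.70 to 57.25 apart from 1 of 83.75 (chr6:155230913-155231079). These 5 windows held no ESC region. Of all 2979 windows, 1378 (46.3%) held none either.

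The remaining windows were both on chromosome 17. The window from 0 to 1 Mb held 6 regions with scores of 52.26 to 66.69, the 904 bp region among them, and 3 ESC regions. The window from 19 to 20 Mb held 6 regions with a median score of 85.68, the highest of these windows after the group on chromosome 1, and 2 ESC regions. The ESC list had 6 or more regions in 5 of the 2979 windows, and none of the 7 was among them. With so few such windows, this says little about the NeuPC windows.

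The edge of this grid divided a group of long, high-scoring regions on chromosome 17, chosen after its values were seen. Within 128.3 kb (chr17:18965249-19093536) lay 5 regions of more than 250 bp. They were chr17:18965249-18965602 (354 bp, score 129.19), chr17:18967105-18967427 (323 bp, 150.47), chr17:19015581-19015863 (283 bp, 104.62), chr17:19091351-19091687 (337 bp, 92.90) and chr17:19093278-19093536 (259 bp, 89.70). The first and last of them each had a partner 1.502 or 1.590 kb away, and none could be placed on a curve. A sixth region between them, chr17:19084832-19084935, had 104 bp and a score of 50.18. The ESC list had no region in this interval of 128.3 kb, and it held 0.999 regions per Mb on chromosome 17 as a whole. This part of the short arm of chromosome 17 is known to hold the genes of the U3 small nucleolar RNA, which takes part in processing ribosomal RNA. Whether the regions lie on these genes was not tested, as no annotation in hg19 coordinates was used here.

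Contigs outside the chromosomes held few regions. These were 18 regions on 12 contigs, 0.562% of the list (Wilson interval 0.356 to 0.886%), compared with 20 on 13 contigs, 0.800% (0.519 to 1.23%), in the ESC list. All but 2 scored between 50.97 and 66.88. The exceptions were a region of 132 bp with a score of 68.67 on the haplotype contig chr6_mcf_hap5 and the highest, chr7_gl000195_random:137935-138308, with 374 bp and 111.48. The latter had an ESC region 4.726 kb away. Of the 18 regions, 5 lay on alternative haplotypes of the major histocompatibility complex on chromosome 6, with scores of 58.14 to 68.67, and all 5 were placed on curves of 6 or 7 events. The highest scores on these contigs were 58.59 on chr6_apd_hap1, 59.06 on chr6_qbl_hap6 and 58.14 on chr6_ssto_hap7.

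The other 13 regions lay on contigs whose place is not fixed. Of these 13, 11 could not be placed on a curve, compared with 159 of the 3205 regions of the whole list (4.96%). The contig chr17_gl000205_random held 3 regions with scores of 55.44, 66.88 and 50.97. On chrUn_gl000220, which carries ribosomal RNA gene sequence, 2 regions of 165 and 259 bp scored 56.63 and 51.01. The highest scores of the remaining contigs were 59.34 on chr1_gl000192_random, 54.36 on chr4_gl000193_random, 57.61 on chr4_gl000194_random, 65.33 on chrUn_gl000219 for a region of 54 bp, and 52.58 on chrUn_gl000241.

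NeuPC and ESC regions overlapped at a single place. Of the 3187 regions on chromosomes, 1 overlapped an ESC region, chr18:74679066-74679215 with a score of 67.07, which shared 144 bp with an ESC region of 154 bp that scored 76.63. The median distance to the nearest ESC region was 384.6 kb, and the range from the 5th to the 95th percentile was 26.2 to 1899 kb. Distances of up to 10 kb were found for 66 regions (2.07%) and of up to 100 kb for 532 (16.7%). Of all positions in the chromosome spans, 1.64% lay within 10 kb and 14.9% within 100 kb of an ESC region. Among the 35 regions with a score of 100 or more, 3 had an ESC region within 10 kb, 7 within 100 kb and 9 within 200 kb. Whether the overlap or the distances differed from those of other positions was not tested.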

How the data were processed

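The authors pulled down chromatin with NUP98Ab1, sequenced it and called regions. The hg19 build is named in the submitters' processing notes. Headers of the region lists carry the name MACS, but the paper's methods describe calling with the Audic-Claverie algorithm in Genomatix software, and the version, the parameters and the control are not given in the sources used here. The NeuPC and ESC lists hold positions and a score per region, as deposited by the authors, with no unit stated. The IMR90 list holds an adjusted p-value per region by the authors, and it was used only for its number of regions. The neuron and IgG libraries were not analysed here.

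Positions are given counted from 1. Density was the number of regions over the span between the first and last NeuPC or ESC region of a chromosome, and Y was left out of the ranking. Intervals are exact Poisson, Wilson or order-statistic intervals at 95%, covering counting error only. Regions overlapped if they shared 1 bp. Poisson curves were fitted by finding the rate and floor that matched most scores within 0.01, after the scores had been seen, and the script was tested on simulated data. The named regions were the 10 highest in score, the 5 longest, those on other contigs, windows of 1 Mb with 6 or more regions, the closest pairs and the 3 densest and sparsest chromosomes. The members and these choices were made with earlier results of these data known. Regions were not assigned to genes, and their sequences are not shown, because the tables at hand were in another build. Python 3.11.15, numpy 2.4.6, scipy 1.17.1 and pandas 2.3.3 were used.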

Additional observations from a re-analysis of the deposited data

How the results depend on the processing

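A higher score limit leaves fewer regions, which by itself lowers counts, covered length and density and widens the spacing. With a score of at least 60 the list held 1428 regions covering 175370 bp, the density of chromosome 17 was 0.777 per Mb, the median spacing was 1303 kb, and 1 window, the start of chromosome 1, held 6 or more regions. At that limit chromosome 17 still had 1.61 times the density of all chromosomes, whereas that of chromosome 4 moved from 0.879 to 0.747 times. With the 50% highest scores, 1602 regions covered 196181 bp. The rank correlation of length and score turned from -0.158 to 0.106 at a score of at least 60. Along the most populated curve, an alternative chosen after seeing the data, it was -1. That value was fixed in advance by choosing regions that match a falling curve, so it says nothing about the processing. With score bins of 2 the fullest bin began at 58 and held 585 regions. With windows of 2 Mb, 51 held 6 or more regions, and with the 1 Mb grid shifted by 0.5 Mb 8 did. Of 46 alternatives, 1 reversed a sign and 11 moved the value, that is past its interval, for a count past 1.5 times, or for the fullest bin to one that does not hold it. Among the moved values, those of counts, covered length, density per Mb and spacing under a score limit follow from the smaller list. The other 34 alternatives neither moved a value nor reversed a sign. These included tolerances of the curve, a score limit on other contigs and spans without long region-free stretches, all chosen after seeing the data. Density over hg19 chromosome lengths was not run, as no genome of that build was used here. No paired analysis was possible because NUP98Ab1 pull-downs came as 1 library per cell type. With 1 library, replicate error could not be given, and the read numbers of the libraries were not used here.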

Other observations

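The chromosome 17 group became a single window when the 1 Mb grid was shifted by 0.5 Mb. The window from 18.5 to 19.5 Mb then held 7 NeuPC regions and 1 ESC region. Of the 8 windows with 6 or more regions on the shifted grid, the one from 0.5 to 1.5 Mb on chromosome 1 held the most, 8. On this grid the fullest window besides the group on chromosome 1, at 66 to 67 Mb on chromosome 11, no longer had a counterpart with 6 or more regions, and neither had those at 54 to 55 Mb on chromosome 2 and 139 to 140 Mb on chromosome 9. Others appeared with 6 regions each at 235.5 to 236.5 Mb on chromosome 2, at 33.5 to 34.5 Mb and 183.5 to 184.5 Mb on chromosome 3 and at 45.5 to 46.5 Mb on chromosome 11.

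The 159 regions that could not be placed on a Poisson curve were longer than the list as a whole, with a median of 142 bp against 121 bp, and had a median score of 60.8. They included 14 of the 35 regions with a score of 100 or more and 26 of the 29 regions over 250 bp. In the ESC list 147 regions could not be placed, with a median length of 153 bp.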
